A study of Mus musculus with 10 samples.

Results

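The mitochondrial respiratory chain genes of the fetal mouse lung are described here. They were taken as all genes whose annotated symbol begins with Nduf, Uqcr, Cox5, Cox6, Cox7 or Atp5, together with Sdha, Sdhb, Sdhc and Sdhd. The rule found 81 genes among 17919 measured, each read by the single-symbol probe set with the highest mean over 10 lungs. By symbol these were 34 genes of complex I, 4 of complex II, 7 of complex III, 11 of complex IV, 17 of complex V and 8 Ndufaf genes, which encode assembly factors of complex I. Each array profiled a whole lung from an embryo at E18.5, shortly before birth. The 5 Hdac3 KO lungs carried Shhcre with Hdac3 fl/fl, so that Hdac3 was deleted in cells in which the Shh promoter is or was active, in the lung the epithelium. The 5 control lungs are labelled Shhcre control, and the labels do not give their Hdac3 alleles. Mothers of the cross were Hdac3 fl/fl and fathers Hdac3 fl/+ with ShhCre, so each embryo inherited a floxed allele from its mother. All embryos had a mixed C57BL/6, 129X1 and 129S6 background. The values are log2 levels from whole lung, in which fewer cells of a type and less RNA per cell cannot be told apart, and cells that never carried active Shhcre, such as mesenchyme, vessels and blood, add to every value.

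The respiratory chain moves electrons from NADH and succinate to oxygen and uses the proton gradient this builds to make ATP. Complex I oxidises NADH, complex II (succinate dehydrogenase) oxidises succinate, complex III passes electrons to cytochrome c, complex IV (cytochrome c oxidase) reduces oxygen, and complex V (ATP synthase) makes ATP. Most subunits are encoded in the nucleus, and their promoters are known for sites of NRF-1, of the ETS factor GABP, of YY1 and of the oestrogen-related receptors (ERR). Hdac3 is the catalytic histone deacetylase of the NCoR and SMRT corepressor complexes, and in mouse brown fat it is known to sustain respiratory chain genes through ERR alpha. Alveolar type 2 cells, which make surfactant, are known to be rich in mitochondria.

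The promoters are shown first because they are the sequence feature by which these genes are usually grouped. Promoter windows of 300 bases, 250 before and 50 after the start site, came from RefSeq (GRCm38.p6) and were present for 69 of the 81 members. Of these 69 genes, 24.64% held the NRF-1 letters (GCGCA, then any base, then GCGC) on either strand, against 7.17% of 17492 protein-coding genes with a window. The GABP letters CCGGAAG were in 26.09% of the members against 12.95% of all protein-coding genes. The YY1 letters AAGATGGC were in 14.49% against 3.57%, and the ERR letters TCAAGGTCA in 2.9% against 0.38%. The NRF-1 letters nearly read the same on both strands and none of the other motifs is contained in them. The median GC content of the windows was 58.8% in members and 56.3% over all protein-coding genes. In all, 39 of the 69 members held at least 1 of these 4 motifs and 30 held none of them. A match describes letters only and is not evidence that a factor binds there.

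**Figure D1:**
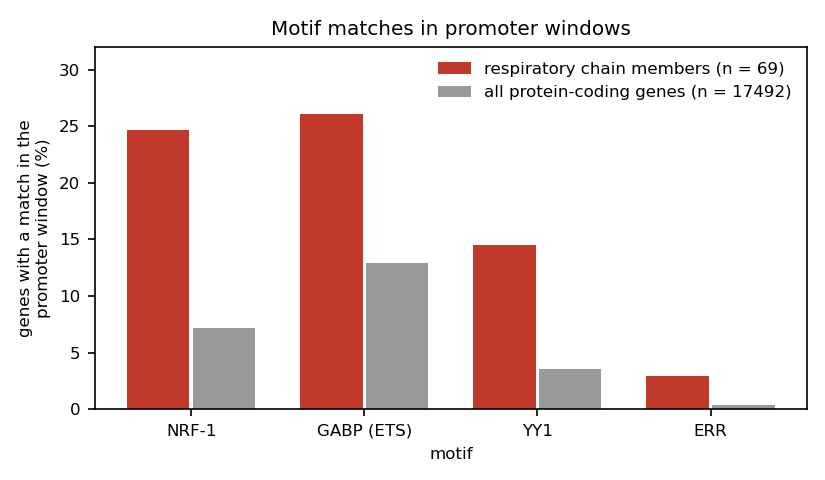
Share of genes (y axis, percent) with a match to each of 4 motifs (x axis) in the promoter window, for 69 respiratory chain members and 17492 protein-coding genes. The member bar is the taller of each pair, for example 24.64% against 7.17% for NRF-1 and 14.49% against 3.57% for YY1.

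The first NRF-1 match of the window is printed here with 10 bases on each side (capitals mark the match) for 1 member of each complex. This is the member with the smallest p in the comparison of the lungs among those with a match. In Uqcrc1 and Atp5g3 the letters match on the opposite strand. The windows of Uqcrc1 and Cox6a1 hold a further match that is not printed. Positions are on GRCm38.p6, each stretch is written 5′ to 3′ on the gene's strand, and all windows are from RefSeq.
Ndufs5 (complex I), chr4:123718265-123718294, minus strand: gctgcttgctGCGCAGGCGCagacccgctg
Sdhd (complex II), chr9:50603909-50603938, minus strand: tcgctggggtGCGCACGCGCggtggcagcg
Uqcrc1 (complex III), chr9:108936643-108936672, plus strand: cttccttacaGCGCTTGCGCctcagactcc
Cox6a1 (complex IV), chr5:115349101-115349130, minus strand: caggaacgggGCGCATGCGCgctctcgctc
Atp5g3 (complex V), chr2:73911295-73911324, minus strand: gagccgcaccGCGCTTGCGCgcccagcccc
Ndufaf5 (assembly factor), chr2:140170652-140170681, plus strand: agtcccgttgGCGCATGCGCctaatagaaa

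The arrays were comparable in overall level: the medians of the 10 lungs lay between 7.43 and 7.46, and lungs correlated at 0.9838 to 0.9945 over all probe sets. Lung identity was visible in the defining markers. The surfactant gene Sftpc averaged 13.44 in Hdac3 KO lungs and 13.46 in control lungs, the AT1 marker Ager 12.31 in both groups and the endothelial marker Pecam1 11.22 in KO lungs and 11.25 in control lungs. Some other markers of AT1 and alveolar type 2 cells differed between the groups, as given further below. The brown fat gene Ucp1 lay at 5.53 in KO lungs and 5.57 in control lungs, under the 20th percentile of all values (6.11). Hdac3 itself was at 10.57, 10.54, 10.61, 10.34 and 10.43 in KO lungs 1 to 5, against 10.80, 10.90, 10.80, 10.67 and 10.90 in control lungs 1 to 5. The Hdac3 log2 change was -0.31 ± 0.07 (SE; limma adjusted p = 0.0203). It no longer passed when control lung 2 (adjusted p = 0.0526) or control lung 5 (adjusted p = 0.0545) was left out. With numbers 1 to 3 alone the Hdac3 log2 change was -0.26 (adjusted p = 0.0629) and with numbers 4 and 5 alone -0.40 (adjusted p = 0.421), so it passed in neither subset. Lungs numbered 4 and 5 lay below the others of their group on the second principal component, from -17.03 to -13.23 in KO lungs and from -2.84 to -2.56 in control lungs, against -0.64 to 3.54 in KO lungs 1 to 3 and 8.89 to 14.49 in control lungs 1 to 3. For members whose call differed in these subsets, both values are given.

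Of the 81 members 0 rose and 1 fell at an adjusted p under 0.05 (limma, Benjamini-Hochberg adjustment over all 17919 genes). Over all genes 3.12% were called, 1.54% higher and 1.58% lower. At an unadjusted p under 0.05 there were 8 members (9.88%), against 13.5% of all genes. The member that fell was Ndufaf5. With the replicate number as a block, which pairs same-numbered lungs, the count was 2 of 81 against 4.72% of all genes: Ndufaf5 fell and Ndufab1 rose. With numbers 1 to 3 and 4 to 5 as a block it was also 2, against 5.08% of all genes: Ndufaf5 fell and Atp5pb rose. In KO lungs 4 and 5 against control lungs 4 and 5 alone, 0 members were called by limma, in a fit that called 0.0112% of all genes, and in numbers 1 to 3 alone Cox5b was the 1 member called, against 2.5% of all genes.

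The 95% intervals show how large an undetected change could be for the probe set used. Each was computed for its gene alone and was not adjusted for the number of genes. The median log2 change of the 81 members was 0.01 and their interquartile range ran from -0.04 to 0.06, against a median of 0.00 and an interquartile range from -0.06 to 0.06 over all genes. The 95% interval of the change lay wholly within a fold of 1.2 in either direction for 68 of the 81 members (84%), against 70% of all genes and 73.8% of genes above the median level. It lay within a fold of 1.5 for all 81 members, against 96.6% of all genes. The half-width of these intervals had a median of 0.13 on the log2 scale and ran from 0.09 (Atp5b) to 0.28 (Atp5j2). They apply to whole lung, not to its epithelium alone.

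**Figure D2:**
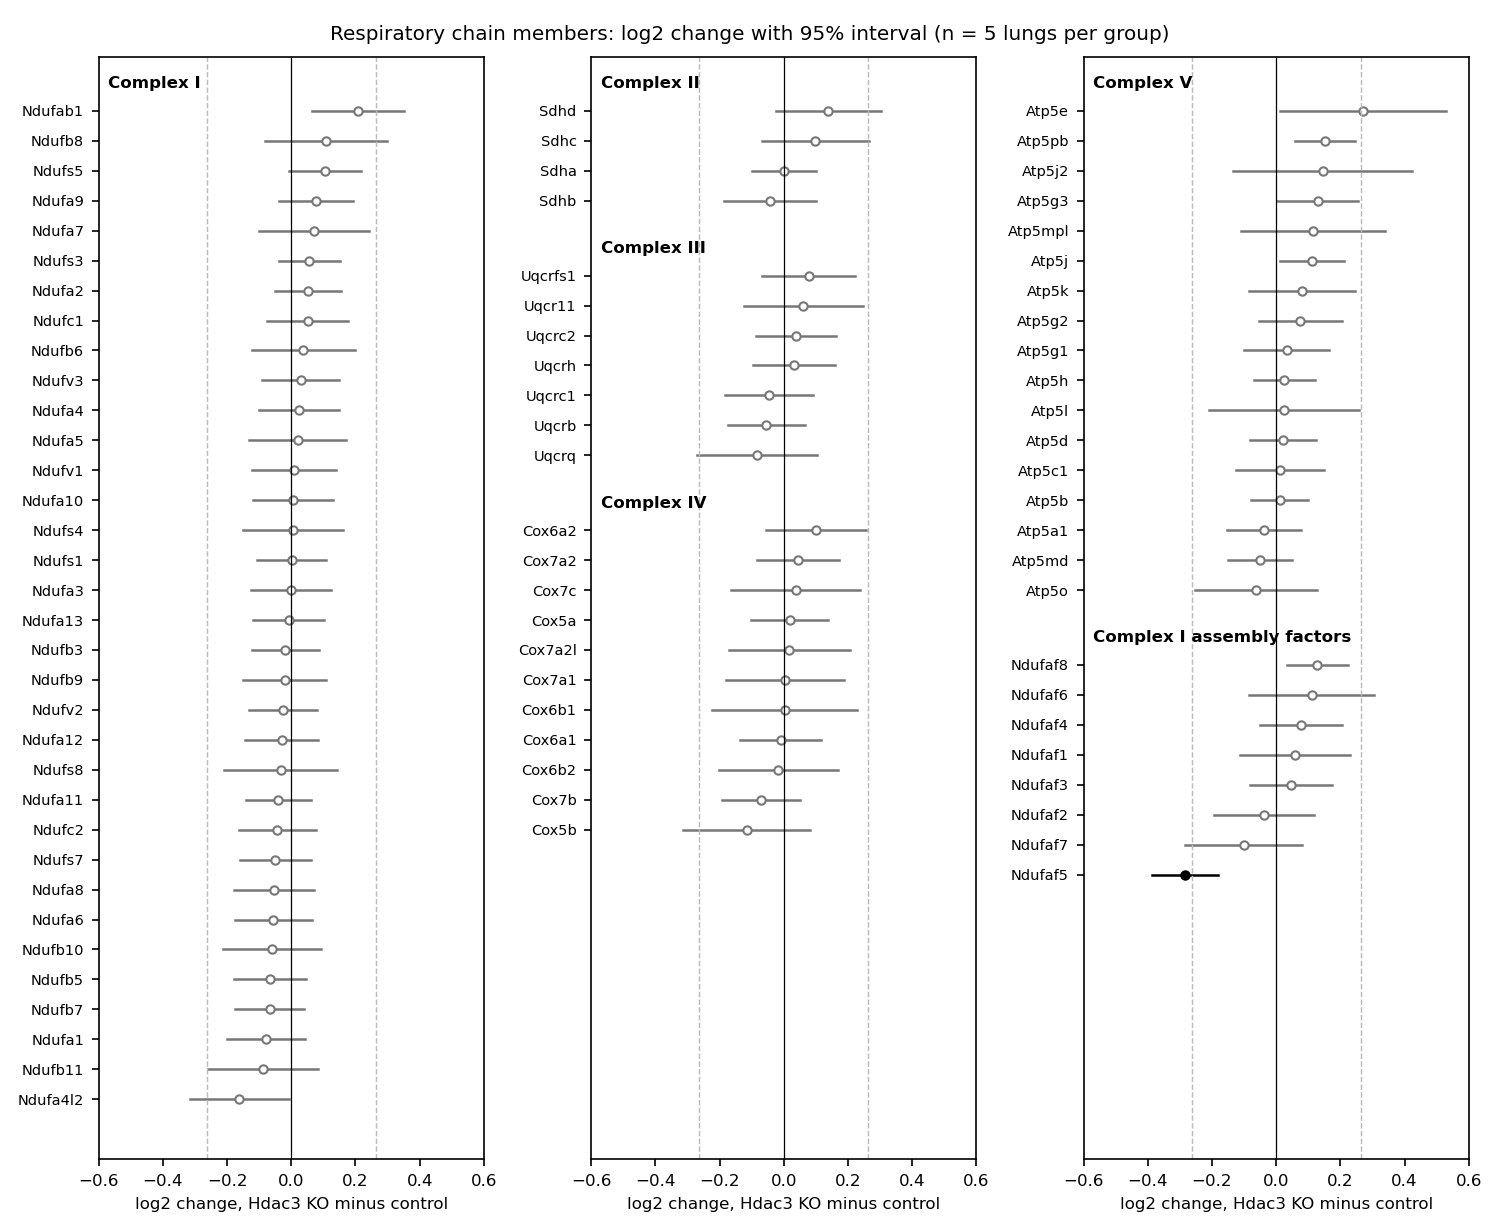
Log2 change, Hdac3 KO minus control (x axis), of each of the 81 members (rows), grouped by complex, with 95% intervals from limma (n = 5 lungs per group). The filled point is the member called at an adjusted p under 0.05, Ndufaf5 at -0.28; open points were not called, and dashed lines mark a fold of 1.2.

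Ndufaf5 encodes an assembly factor that, as known from human cells, hydroxylates an arginine of the core subunit NDUFS7 early in the building of complex I. It was at 6.31, 6.35, 6.23, 6.25 and 6.37 in KO lungs 1 to 5, against 6.51, 6.62, 6.58, 6.58 and 6.65 in control lungs 1 to 5. All KO lungs lay below all control lungs. The mean was 6.30 ± 0.06 in KO lungs and 6.59 ± 0.05 in control lungs (SD, n = 5 each), a log2 change of -0.28 ± 0.05 (SE; 95% interval -0.39 to -0.18; limma adjusted p = 0.00547), or 0.822 of the control level. An exact permutation of the 10 lungs' labels (two-sided) gave p = 0.00794, the smallest it can give. Within same-numbered pairs KO was lower in 5 of 5, by 0.20 to 0.35. With the block the adjusted p was 0.00984. With KO and control numbers 1 to 3 alone, the change was -0.27 and was not called (adjusted p = 0.0642); with numbers 4 and 5 alone it was -0.30 (adjusted p = 0.451). All 10 values lay close above the 20th percentile of all values (6.11).

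The promoter window of Ndufaf5 (chr2:140170396-140170695, plus strand, GRCm38.p6, RefSeq) is printed in full because this is the member that fell; capitals mark its NRF-1 match, which begins at base 17 counted from the start site as base 1.
Ndufaf5 promoter window: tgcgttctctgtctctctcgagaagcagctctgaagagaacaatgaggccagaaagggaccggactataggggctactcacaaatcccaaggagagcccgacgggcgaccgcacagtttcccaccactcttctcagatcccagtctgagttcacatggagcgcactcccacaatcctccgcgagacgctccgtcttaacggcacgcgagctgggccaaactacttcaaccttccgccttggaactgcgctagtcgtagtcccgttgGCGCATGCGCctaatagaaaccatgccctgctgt

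None of the other 7 assembly factors passed the limma test. Ndufaf8, whose human counterpart is known to bind and stabilise NDUFAF5, was at 7.58, 7.48, 7.47, 7.52 and 7.52 in KO lungs 1 to 5, against 7.36, 7.36, 7.34, 7.46 and 7.43 in control lungs 1 to 5. Its groups did not overlap either, with KO lungs above control lungs, but its change of 0.13 ± 0.04 (SE) was not called (limma adjusted p = 0.184; exact permutation p = 0.00794). The 6 remaining factors had log2 changes from -0.10 (Ndufaf7) to 0.11 (Ndufaf6), with limma adjusted p of 0.659 or more. Among them Ndufaf3, which acts early in complex I assembly, averaged 9.21 ± 0.06 in KO lungs and 9.16 ± 0.11 in control lungs (SD, n = 5 each).

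None of the 34 genes of complex I passed the limma test without the block. The 6 measured core genes (Ndufv1, Ndufv2, Ndufs1, Ndufs3, Ndufs7 and Ndufs8), which carry the flavin and the iron-sulphur clusters or hold the quinone site, had log2 changes from -0.05 to 0.06, and the interval of each lay within a fold of 1.2. The other 28 genes were counted as accessory by symbol alone, which includes Ndufa4 and its paralogue Ndufa4l2. Among them the unadjusted p was under 0.05 for 2, namely Ndufab1 and Ndufa4l2. Over all 34 genes the median change was -0.01, with 16 above 0 and 18 below.

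Ndufab1 encodes the mitochondrial acyl carrier protein, which is a subunit of complex I and also carries growing acyl chains in mitochondrial fatty acid synthesis. It was at 7.38, 7.28, 7.18, 7.42 and 7.46 in KO lungs 1 to 5, against 7.21, 7.11, 6.98, 7.18 and 7.20 in control lungs 1 to 5. The groups overlapped at KO lung 3, but each KO lung lay above the control lung of its own number, by 0.17 to 0.26. The change of 0.21 ± 0.07 (SE) was not called without the block (limma adjusted p = 0.138) and was called with it (adjusted p = 0.0292). Its promoter window held none of the 4 motifs.

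Ndufa4l2, a paralogue of Ndufa4 known as a hypoxia-induced gene, was at 8.10, 8.23, 8.43, 8.41 and 8.41 in KO lungs 1 to 5, against 8.48, 8.35, 8.47, 8.56 and 8.53 in control lungs 1 to 5. KO was lower in 5 of 5 pairs, but the groups overlapped, and the change of -0.16 ± 0.07 (SE) was not called (limma adjusted p = 0.336). Ndufa4 itself, named as a complex I gene but now known as a complex IV subunit, averaged 9.59 ± 0.08 in KO lungs and 9.57 ± 0.09 in control lungs (SD, n = 5 each), and its interval was -0.10 to 0.15. Ndufc2, an accessory subunit of the membrane arm, averaged 11.95 ± 0.11 in KO lungs and 12.00 ± 0.04 in control lungs.

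The 4 genes of succinate dehydrogenase, which also serves the TCA cycle, gave 0 calls by limma, adjusted or unadjusted. Sdha, the flavoprotein, was at 10.64, 10.73, 10.76, 10.73 and 10.77 in KO lungs 1 to 5, against 10.78, 10.71, 10.78, 10.69 and 10.66 in control lungs 1 to 5. Its groups overlapped almost completely, with a log2 change of 0.00 and an interval from -0.10 to 0.10. The change was -0.04 (-0.19 to 0.10) for Sdhb, the iron-sulphur subunit. For the membrane anchors Sdhc and Sdhd it was 0.10 (-0.07 to 0.26) and 0.14 (-0.02 to 0.30). Sdhd was less even in control lungs, from 9.77 to 10.16, than in KO lungs, from 10.03 to 10.14.

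Complex III gave 0 calls by limma among 7 genes, and 0 at an unadjusted p under 0.05. Changes ran from -0.08 (Uqcrq) to 0.08 (Uqcrfs1, the Rieske iron-sulphur protein). Uqcrfs1 averaged 7.58 ± 0.10 in KO lungs and 7.50 ± 0.12 in control lungs, and Uqcrb 11.78 ± 0.08 in KO lungs and 11.84 ± 0.08 in control lungs (SD, n = 5 each). For the core proteins Uqcrc1 and Uqcrc2 the changes were -0.05 (-0.18 to 0.09) and 0.04 (-0.09 to 0.16).

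Complex IV gave 0 calls by limma among 11 genes and 0 at an unadjusted p under 0.05, with a median change of 0.00. Several of its subunits have a ubiquitous form and a form of heart and skeletal muscle. The ubiquitous Cox6a1 was at 12.20, 12.00, 12.03, 11.89 and 11.98 in KO lungs 1 to 5, against 12.01, 12.10, 12.07, 11.97 and 12.01 in control lungs 1 to 5. KO lungs held both the highest and the lowest value, and the change was -0.01 (-0.14 to 0.12). The muscle form Cox6a2 had a change of 0.10 (-0.05 to 0.26) and was higher in KO in 5 of 5 pairs, by 0.05 to 0.14. The change was 0.00 (-0.18 to 0.19) for the muscle form Cox7a1, 0.04 (-0.08 to 0.17) for its ubiquitous counterpart Cox7a2, and 0.02 (-0.17 to 0.21) for Cox7a2l, which is known to join complexes III and IV. For Cox6b1 and the testis form Cox6b2 it was 0.00 (-0.22 to 0.23) and -0.02 (-0.20 to 0.17), and for Cox7b -0.07 (-0.19 to 0.05). Whole lung includes the heart-type muscle of the pulmonary veins: of 12 heart muscle markers 0 passed the limma test and 1 at the unadjusted threshold, and their mean level per lung ran from 8.73 to 8.97 in KO lungs and from 8.82 to 8.98 in control lungs.

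Cox5b, a nuclear subunit around the catalytic core of complex IV, is described because its control lungs disagreed, a choice made after its values were seen. It was at 10.85, 10.85, 10.80, 10.97 and 10.84 in KO lungs 1 to 5, against 11.15, 11.13, 11.09, 10.87 and 10.64 in control lungs 1 to 5. Control lungs 1 to 3 lay above every KO lung, and control lung 5 below every one. The change was -0.12 (-0.31 to 0.08; limma adjusted p = 0.672) over all lungs, -0.29 in numbers 1 to 3 alone (adjusted p = 0.0286) and 0.15 in numbers 4 and 5 alone (adjusted p = 0.767). A second Cox5b probe set went the other way, at 6.35 in KO lungs and 6.13 in control lungs (0.22, limma adjusted p over all single-symbol probe sets = 0.0958), and the mean of both probe sets gave a change of 0.05. The probe sets' positions were not used here, and near-identical gene copies are common in this family, so which transcript each reads is uncertain.

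Of the 17 genes of complex V, 0 passed the limma test. At an unadjusted p under 0.05 there were 4 (23.5%, against 13.5% of all genes). The median change was 0.03, with 14 changes above 0 and 3 below, against 9315 above and 8604 below over all genes. These counts describe the list and were not tested. The 4 were Atp5pb, Atp5j, Atp5e and Atp5g3, and all 4 were higher in KO in 5 of 5 pairs. They were picked by p from these same lungs, so the pairs add no separate evidence.

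Atp5pb encodes subunit b of the peripheral stalk, which keeps the catalytic head from turning with the rotor. It was at 10.09, 10.07, 10.04, 10.02 and 10.07 in KO lungs 1 to 5, against 9.94, 9.95, 9.94, 9.86 and 9.84 in control lungs 1 to 5. All KO lungs lay above all control lungs. The change was 0.15 ± 0.04 (SE; 95% interval 0.06 to 0.25; exact permutation p = 0.00794), and it was not called (limma adjusted p = 0.0885; blocked by replicate number, adjusted p = 0.0986). With numbers 1 to 3 and 4 to 5 as a block it was called (adjusted p = 0.0425).

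Atp5j encodes coupling factor 6, also of the peripheral stalk. It was at 8.94, 9.0, 8.90, 8.86 and 8.88 in KO lungs 1 to 5, against 8.76, 8.84, 8.85, 8.73 and 8.85 in control lungs 1 to 5. Here too the groups did not overlap, but KO lung 4 and control lungs 3 and 5 lay close together. The change was 0.11 ± 0.05 (SE; limma adjusted p = 0.292). Ndufaf5, Ndufaf8, Atp5pb and Atp5j were the 4 of 81 members whose groups did not overlap; among all genes the share without overlap was 5.11%.

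Atp5e, the epsilon subunit of the catalytic head, had the highest log2 change among the members, 0.27 ± 0.12 (SE), but also one of the widest spreads. It was at 9.16, 8.98, 8.87, 8.50 and 8.80 in KO lungs 1 to 5, against 8.49, 8.73, 8.85, 8.39 and 8.49 in control lungs 1 to 5, with overlapping groups (limma adjusted p = 0.337). A second Atp5e probe set gave 7.79 in KO lungs and 7.83 in control lungs, a change of -0.04. Atp5g1, Atp5g2 and Atp5g3 encode the same mature subunit c of the rotor ring with different import sequences. Their changes were 0.03 (-0.10 to 0.17), 0.08 (-0.05 to 0.20) and 0.13 (0.00 to 0.25; limma adjusted p = 0.352 for Atp5g3). The catalytic beta subunit Atp5b averaged 12.54 ± 0.03 in KO lungs and 12.53 ± 0.03 in control lungs (SD, n = 5 each), with a change of 0.01 and the narrowest interval of the members (-0.08 to 0.10).

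**Figure D3:**
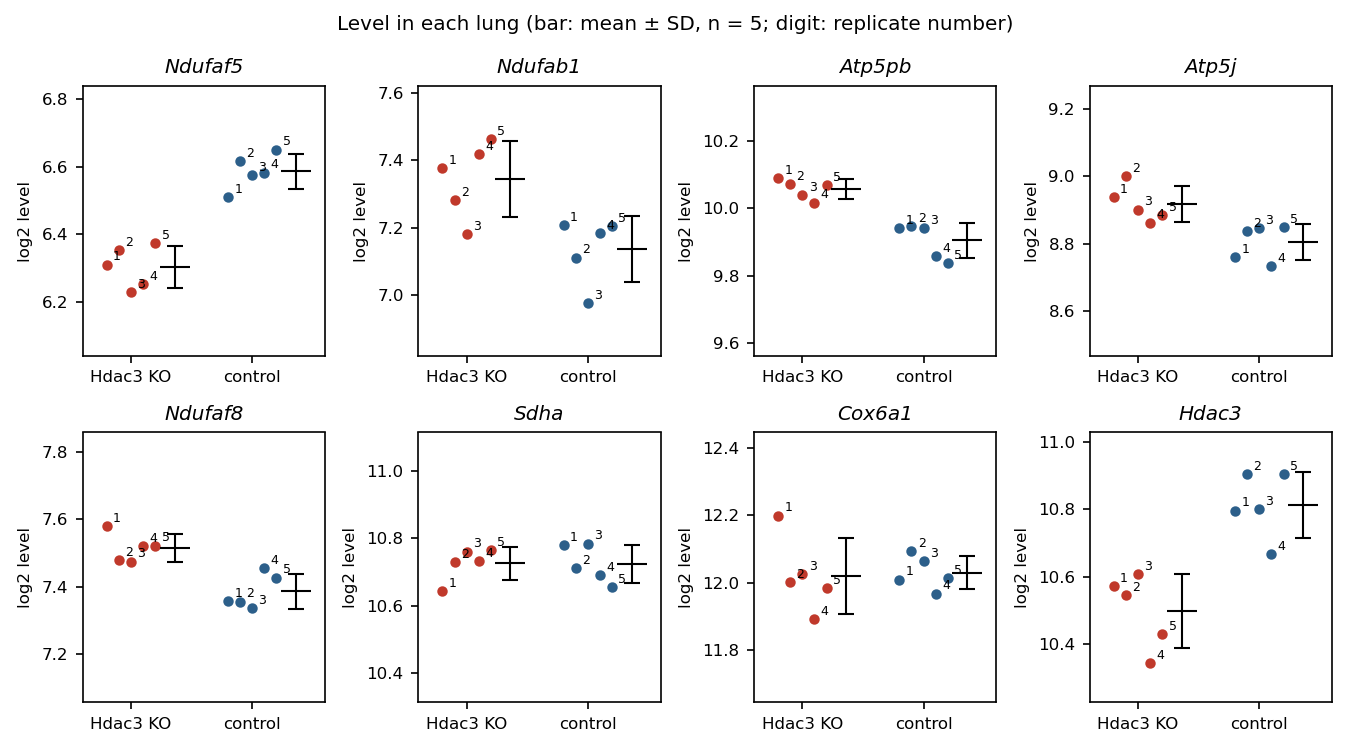
Log2 level (y axis) of 7 members and Hdac3 in each Hdac3 KO lung (left) and control lung (right); digits are replicate numbers and bars the mean ± SD (n = 5). Each panel spans the same range of log2 levels. Ndufaf5 and Hdac3 lie lower in every KO lung, Atp5pb, Atp5j and Ndufaf8 higher, and Ndufab1, Sdha and Cox6a1 overlap.

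The promoter window of Atp5pb (chr3:105959214-105959513, minus strand, GRCm38.p6, RefSeq) is shown as that of the complex V member with the smallest p. Capitals mark its YY1 match, which lies on the opposite strand across the start site.
Atp5pb promoter window: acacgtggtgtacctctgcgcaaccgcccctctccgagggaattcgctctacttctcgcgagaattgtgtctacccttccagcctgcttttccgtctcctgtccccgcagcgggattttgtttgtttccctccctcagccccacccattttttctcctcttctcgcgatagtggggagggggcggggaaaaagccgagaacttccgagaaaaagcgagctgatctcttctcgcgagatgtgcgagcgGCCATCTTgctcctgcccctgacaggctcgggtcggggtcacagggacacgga
Of the 10 members with the YY1 letters, 8 had a log2 change above 0. This was so for 34 of the 59 members with a window and no such match, and for 9315 of all 17919 genes. The median was 0.09 for the 10 members and 0.01 for the 59. Atp5pb, Atp5j and Ndufaf8, singled out above by their values in these same lungs, are among the 10 with the YY1 letters. For NRF-1 the medians were 0.01 with a match (17 members) and 0.01 without (52 members), and for GABP 0.04 (18 members) and 0.01 (51 members). The 2 members with the ERR letters, Atp5g3 and Sdhd, had log2 changes of 0.13 and 0.14, and neither was called. These splits are descriptions of the members and were not tested.

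The level of the chain as a whole was also followed per lung. Each gene was set against its own mean over the 10 lungs, and these deviations were averaged over the 81 members. The averages were 0.031, 0.019, 0.014, -0.043 and 0.017 in KO lungs 1 to 5, against -0.009, 0.053, 0.014, -0.081 and -0.015 in control lungs 1 to 5. The lung numbered 4 was the lowest of its group in each genotype. Over all genes above the median level these 2 lungs lay at -0.015 (KO) and -0.023 (control). The group means of the members were 0.008 ± 0.029 in KO lungs and -0.008 ± 0.049 in control lungs (SD, n = 5 each), a difference smaller than either SD. By complex the difference between group means, KO minus control, was 0.062 for complex V, 0.049 for complex II and between -0.001 and 0.004 for complexes I, III and IV and the assembly factors. Without both lungs numbered 4, a choice made after seeing the data, Ndufaf5 was still the 1 member called (adjusted p = 0.0384).

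**Figure D4:**
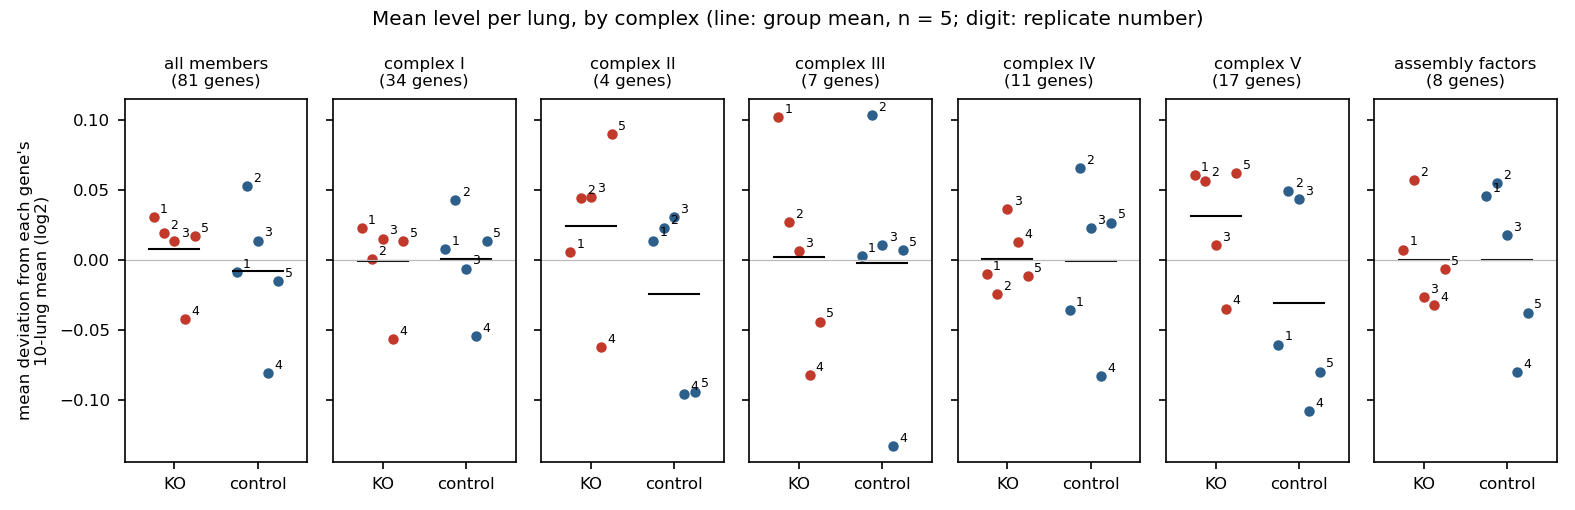
Mean deviation of a complex's genes from their 10-lung means (y axis, log2) in each Hdac3 KO lung (left) and control lung (right), with replicate numbers and the group mean as a line (n = 5). The lung numbered 4 is the lowest control in every panel, and for all members it is lowest in both groups, at -0.043 (KO) and -0.081 (control).

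Within same-numbered pairs, of the 81 members 8 were higher in KO in all 5 same-numbered pairs (9.88%, against 8.7% of all genes), and 2 were lower in all 5 (2.47%, against 9.07% of all genes). The 8 were Atp5e, Atp5g3, Atp5j, Atp5pb, Cox6a2, Ndufa9, Ndufab1 and Ndufaf8, and the 2 were Ndufa4l2 and Ndufaf5.

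A further list outside the symbol rule held 8 genes: subunits, carriers or regulators of oxidative phosphorylation, and Micos10 (0.08). Of these 0 passed the limma test with or without the block, and the unadjusted p was under 0.05 for 0 of them. Cytochrome c (Cycs) and cytochrome c1 (Cyc1) had log2 changes of -0.04 and 0.00. The change was 0.04 for the ubiquitous Cox4i1, -0.05 for Cox8a and -0.02 for the muscle form Cox8b. Cox4i2, the complex IV isoform of lung that is known to serve oxygen sensing, was at 9.84, 9.47, 9.53, 9.42 and 9.56 in KO lungs 1 to 5, against 9.32, 9.63, 9.32, 9.30 and 9.33 in control lungs 1 to 5. KO lungs lay above 4 of the 5 control lungs and control lung 2 above 4 of the 5 KO lungs, and its change of 0.19 ± 0.09 (SE) was not called (limma adjusted p = 0.381). The list of 13 mitochondrially encoded subunits had 0 members with a value here.

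Of 35 further assembly factors 0 passed the limma test, and the unadjusted p was under 0.05 for 2. Sdhaf2, which helps to insert the flavin into Sdha, had the smallest p, with a change of 0.15 ± 0.05 (SE; adjusted p = 0.218). Of 12 TCA cycle enzymes 0 passed, and 0 at the unadjusted threshold, and Fh1, fumarase, stood closest at 0.09 ± 0.04 (SE; limma adjusted p = 0.382). Of 22 regulators of mitochondrial biogenesis 0 passed the limma test, and 1 at the unadjusted threshold. That was Ppara, a fatty acid receptor, at -0.17 ± 0.07 (SE; adjusted p = 0.267). None of the factors named for the promoter motifs passed the test: the change was 0.06 for Nrf1, 0.01 for Gabpa, 0.02 for Yy1 and 0.01 for Esrra. For the other ERR genes, Esrrb and Esrrg, the changes were -0.08 and -0.14. For the coactivators Ppargc1a, Ppargc1b and Pprc1 they were 0.08, -0.17 and 0.06, and for the mitochondrial transcription factor Tfam -0.06.

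Of 71 mitochondrial ribosomal protein genes 0 passed the limma test, and 6 at the unadjusted threshold (8.45%, against 13.5% of all genes). The median change was 0.05, with 54 genes above 0 and 17 below, against 9315 above and 8604 below over all genes. Mrpl45, a protein of the large subunit near the exit of the nascent chain, averaged 7.94 ± 0.12 in KO lungs and 7.71 ± 0.08 in control lungs (SD, n = 5 each), a change of 0.23 ± 0.06 (SE; limma adjusted p = 0.0762). With the replicate block it was the 1 gene of this list that was called (adjusted p = 0.0415).

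The same lungs showed changes in epithelial cell markers. Over all genes 1.54% rose and 1.58% fell. Of 7 pan-epithelial markers 3 rose and 0 fell, namely Krt18 (1.34), Krt8 (0.74) and Cldn7 (0.32). The changes of Elf3 (0.19), Cdh1 (0.18), Epcam (0.04) and Nkx2-1 (-0.04) were not called. The mean level of the 7 was 10.32 to 10.36 in KO lungs and 9.90 to 9.99 in control lungs. Of 7 club cell markers 0 rose and 4 fell (9.33 to 9.71 in KO lungs, 10.01 to 10.43 in control lungs). Those that fell were Chad (-1.26), Gabrp (-1.13), Scgb3a2 (-1.06) and Aldh1a7 (-0.58). The changes of Scgb3a1 (-0.66), Scgb1a1 (-0.15) and Cyp2f2 (0.06) were not called. Of 7 multiciliated cell markers 0 rose and 4 fell (7.72 to 7.80 in KO lungs, 7.88 to 7.94 in control lungs). The other 3 multiciliated markers had changes above 0: 0.15 for Dnah5, 0.12 for Foxj1 and 0.03 for Tekt1. With numbers 1 to 3 and 4 to 5 as a block Dnah5 was called higher (limma adjusted p = 0.036). Of 8 AT1 markers 0 rose and 1 fell, namely Pdpn (-0.52), while Aqp5 (0.47) was not called. Of 9 AT2 markers 2 rose and 0 fell, namely Etv5 (0.61) and Lpcat1 (0.34), while Sftpa1 (-0.48) was not called. With the replicate block 1 AT1 marker, Rtkn2, also rose (0.40, adjusted p = 0.00862), and the counts of the other 4 epithelial lists were as without it. None of the fibroblast, endothelial, smooth muscle, leukocyte, erythroid, heart muscle, skeletal muscle and brown fat markers passed the limma test without the block; with it 1 smooth muscle and 1 leukocyte marker fell and 1 erythroid marker rose. At the unadjusted threshold there were 0 of 6, 0 of 5, 1 of 5, 2 of 5, 0 of 2, 1 of 12, 0 of 6 and 1 of 4. The part of these markers in the level of Ndufaf5 was not tested.

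Coverage of the family was not complete. The symbols Cox6c, Ndufb2, Ndufb4, Ndufb4b, Ndufb4c, Ndufs5-ps, Ndufs6, Ndufs6b and Uqcr10 had only probe sets shared with another gene name and have no value of their own. Of the shared probe sets, the brighter of those for Cox6c and Gm6265 averaged 12.13 in KO lungs and 12.23 in control lungs, and that for Uqcr10 and Gm6293 averaged 7.46 in KO lungs and 7.47 in control lungs. The genes Ndufb1 and Cox7b2 were not analysed here. For 9 members a second single-symbol probe set exists; 0 of these 9 were called by limma over all single-symbol probe sets, and those of Atp5h and Cox5b had an unadjusted p under 0.05.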

How the data were processed

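RNA of 10 whole lungs was extracted with a miRNeasy kit, and 100 ng was turned into cDNA with a poly(T) primer, amplified and hybridised to 1 Affymetrix array per lung, per the labels' protocols. The authors deposited log2 probe set values; oligo, RMA and limma are named, without versions, per the submitters' processing notes. Background settings, genome build and any row filter were not given in the sources used here. In all the table held 24888 probe sets, from 3.53 to 13.61. The platform annotation gave 1 symbol for 18922, several for 1343 and none for 4623; the highest-mean probe set stood for each of 17919 genes. All 81 members matched the GRCm38.p6 RefSeq gene table by gene ID.

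KO and control were compared with limma 3.58.1 in R 4.3.3 (lmFit, eBayes, two-sided) over all genes, with Benjamini-Hochberg adjustment and a threshold of 0.05. The fit was tested on simulated data. Replicates are labelled biological, and precision is limited by their number. The labels number the lungs 1 to 5 in each group. Deviations of same-numbered lungs from their group means correlated at 0.319, 0.154, 0.183, 0.485 and 0.36 over all genes, and at -0.088 to 0.379 within the members. By the rule that every pair exceeds 0.1 the numbers were taken to pair the lungs; this pairing rests on the data, since the labels state none, and the highest correlation between different numbers was 0.33. The alternatives left out each lung, used blocks or subsets of numbers, filtered or floored low values, averaged probe sets, recentred samples and changed the eBayes prior.

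The members, lists and motifs were chosen with earlier results of these data known. Named genes are Hdac3, members called with or without the block, the 2 with the smallest p and the highest level per complex, the 4 Sdh genes, isoform sets of complexes I, IV and V, and up to 4 called genes per list or 1 with the smallest p. Cox5b and other genes outside the rule were chosen after their values were seen.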

Additional observations from a re-analysis of the deposited data

Results flagged for a closer look

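Of 56 groups of 5 lungs examined among the named members and Hdac3, 3 held a lung far from the other 4, as Dixon's test at 95% reads it; chance flags about 1 in 20 groups. All 3 were lungs numbered 4. Ndufc2 was at 11.76 in KO lung 4, against 11.97 to 12.02 in the other KO lungs. Cox6b1 was at 9.11 in control lung 4, against 9.51 to 9.62 in the other control lungs. Ndufaf3 was at 8.96 in control lung 4, against 9.18 to 9.24 in the other control lungs. Without that lung the log2 change was 0.00 for Ndufc2, -0.09 for Cox6b1 and -0.00 for Ndufaf3, against -0.04, 0.00 and 0.05 over all lungs, and none of the 3 was called with or without it.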

How the results depend on the processing

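With the replicate block the count of members called was 2, with numbers 1 to 3 against 4 and 5 as a block 2, with values floored at the 20th percentile 2, with the trended robust prior 2, and with numbers 4 and 5 alone 0, against 1 of 81 in the comparison of all lungs. It was 1 under each omission of a single lung (1 to 1) and under the other alternatives. By complex, complex I had 1 call with the replicate block (Ndufab1), against 0. Complex IV had 1 with numbers 1 to 3 alone (Cox5b, lower), against 0. Complex V had 1 (Atp5pb, higher) with the block of numbers 1 to 3 and 4 to 5, among genes above the median level, with the floor and with the trended robust prior, against 0. The assembly factors had 0 calls with numbers 1 to 3 alone, with numbers 4 and 5 alone and among genes above the median level, where Ndufaf5 was not tested, against 1. Ndufaf5 was called in 17 of 19 alternatives, with changes from -0.30 to -0.27 and adjusted p from 0.00371 to 0.451; under single omissions adjusted p ran from 0.00522 to 0.0182. Biogenesis regulators had 0 to 1 calls under single omissions, the 1 being Mterf1a without control 5 (0.26, adjusted p = 0.0474). Mitochondrial ribosomal genes had 1 call with the replicate block, 2 (Mrpl45 and Mrpl24) with the block of numbers 1 to 3 and 4 to 5, 1 among genes above the median level, and 0 to 1 under single omissions, the 1 being Mrpl24 without KO lung 5. The count of all genes called was 559, 846 with the replicate block, 910 with the block of numbers 1 to 3 and 4 to 5, 2 with numbers 4 and 5 alone, 393 to 699 under single omissions and 340 without both lungs numbered 4, chosen after seeing the data. Besides Ndufab1, Mrpl45 and the AT1 marker Rtkn2, the paired fit changed no call of a named gene. Named members not called with or without the block changed sign in 46 of 508 recomputations, all of them without a call.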
